A study of Mus musculus with 10 samples.

Results

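Glucocorticoid response genes are described here in the hippocampus of mice 4 days after subarachnoid hemorrhage (SAH). The group holds 10 of the 24391 gene names in the count tables. It consists of 8 genes that steroids induce in brain (Fkbp5, Sgk1, Tsc22d3, Plin4, Pdk4, Zbtb16, Sult1a1 and Cdkn1a) and the genes of the glucocorticoid receptor (Nr3c1) and the mineralocorticoid receptor (Nr3c2). They were chosen by name, with earlier results of these mice known, so their differences between mice are a description and are not independent evidence of a steroid response. The rule names no threshold on the values, and all 10 genes passed the filter on low counts.

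The 10 mice were male, of the C57BL/6J strain (printed as C56BL/6J in the study's methods) and 10 to 14 weeks old. Those methods name no drug treatment besides isoflurane anesthesia. The 4 SAH mice (numbered 1 to 4) had the circle of Willis perforated on 1 side by a filament under isoflurane anesthesia, and were kept in the study only when cerebral blood flow dropped after the puncture. In the 3 Sham mice (5 to 7) the filament was advanced under the same anesthesia and withdrawn without a puncture, and the 3 Naive mice (8 to 10) were the uninjured group. Each mouse gave 1 RNA library from the whole hippocampus of both sides, so each library is a separate animal.

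Cortisol in humans and corticosterone in mice are released by the adrenal cortex under the control of the hypothalamus and pituitary. In the hippocampus these steroids bind the mineralocorticoid receptor with high affinity and the glucocorticoid receptor with lower affinity, so the latter is occupied mainly at the daily peak and during stress. The ligand-bound receptors enter the nucleus and bind DNA as dimers at short palindromic elements. Among the genes induced there are feedback inhibitors of the receptor, kinases, cell cycle inhibitors and enzymes of fuel use.

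The letters of that element were searched in the mm9 genome, to show the sequences near the genes described below. The palindrome of GNACA, any 3 bases and TGTNC (N is any base), which reads the same on both strands, was searched within 5000 bases on either side of the 5′ end of each gene model. It was found near 3 of the 10 genes (Fkbp5, Cdkn1a and Plin4) and near 15.8% of 24274 gene models. The 4 matches below lie in introns and are written on the strand of the gene, with the palindrome in capitals.
Fkbp5, chr17:28621898-28621910, 1190 bases downstream of the 5′ end: ggggctcgGGACAGGGTGTACagcgcttg
Plin4, chr17:56248275-56248287, 944 bases downstream: agagtccaGCACAGAATGTCCtctcgcag
Plin4, chr17:56245157-56245169, 4062 bases downstream: ggtacgaaGGACACGGTGTCCacagggct
Cdkn1a, chr17:29231645-29231657, 3720 bases downstream: tttggcggGCACAGTATGTTCccagggaa
A single arm of the element, AGAACA, was searched on either strand from 250 bases before to 50 bases after the 5′ end. It was found at 3 of the 10 genes and at 16.8% of the gene models, and it is in capitals below (as TGTTCT where the arm lies on the other strand).
Sgk1, chr10:21601795-21601800, 193 bases upstream: gaatccgtTGTTCTgtgttttc
Tsc22d3, chrX:137135241-137135246, 182 bases upstream: attcgacaTGTTCTaagttctg
Sult1a1, chr7:133819961-133819966, 92 bases upstream: gtttctggAGAACAgccagtcc
These are matches of letters and not measured binding sites, and receptor binding was not measured in these mice.

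The libraries held 19743388 to 27254655 counts of read pairs (20099076 to 26866167 in SAH), and 14993 genes passed the filter on low counts. SAH mouse 3, with the lowest total of the SAH mice, stood apart from its group. The chi-square per degree of freedom between 2 libraries of a group, which is 1 when they differ by sampling noise alone, was 15.3 to 19.3 for pairs with SAH mouse 3, 4.28 to 10.7 for the other SAH pairs and 4.09 to 9.09 within Sham and Naive. SAH mouse 3 was the highest of the 10 mice for 24.8% of all genes tested and the lowest for 26.3%. The comparisons of the members are therefore also given without it, as are the other group values that it moved most. Markers of the tissue were present in all mice, with summed levels of 516.2 to 725.5 CPM for 7 dentate granule cell genes and of 813.1 CPM or more for 8 genes of CA pyramidal neurons. CPM are counts scaled to a common library size with TMM.

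Before the groups are compared, the levels of the genes in the 6 control mice (Sham and Naive) can be set side by side per kilobase of exon. The mineralocorticoid receptor gene Nr3c2 was the highest at 44.2 ± 3.04 CPM per kilobase (SD, n = 6). Below it came Tsc22d3 at 24.3 ± 4.64, Sgk1 at 21.8 ± 6.18 and the glucocorticoid receptor gene Nr3c1 at 17.9 ± 0.584 CPM per kilobase (SD, n = 6). Tsc22d3 did not differ from Sgk1, nor Sgk1 from Nr3c1, beyond these spreads. Fkbp5 followed at 14.5 ± 1.85 and Zbtb16 at 11.5 ± 1.31 CPM per kilobase, with spreads that touched. Cdkn1a (3.99 ± 0.947), Pdk4 (3.45 ± 0.303) and Sult1a1 (3.45 ± 0.386 CPM per kilobase) could not be told apart in level. Plin4 was the lowest by far, at 0.125 ± 0.0335 CPM per kilobase, and rested on 11 to 25 counts per control mouse.

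Of the 8 induced genes, all 8 were higher in SAH mouse 3 than in any of the other 9 mice. Most of the remaining SAH values lay within the control range. Levels in the next paragraphs are CPM.

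Fkbp5 codes for a co-chaperone that binds the receptor complex through Hsp90, lowers its affinity for hormone and so closes a feedback loop inside the cell. It is at chr17:28535698-28623094 (minus strand). Its levels were 59.5, 55.1, 146.2 and 77.8 CPM in SAH mice 1 to 4, against 42.4, 61.3 and 62.0 in Sham and 57.5, 58.9 and 56.2 in Naive. SAH mouse 3 stood at 1.88 times the next mouse, SAH mouse 4 was also above all controls, and SAH mice 1 and 2 were inside the control range. Fkbp5 averaged 84.7 ± 42.2 CPM over SAH mice (SD, n = 4) and 56.4 ± 7.20 CPM over controls (SD, n = 6), which is 0.58 on the log2 scale (SE 0.22, edgeR adjusted p = 0.191). With SAH mouse 3 left out, this log2 difference was 0.19 (SE 0.11, edgeR adjusted p = 0.529), while without SAH mouse 1 or 2 it was 0.72 or 0.74 and passed the threshold of 0.10 (edgeR adjusted p = 0.0999 and 0.0705).

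Sgk1 (chr10:21601990-21719708, plus strand) codes for a kinase that regulates ion channels and transporters and is induced through both receptors. It had 73.4, 103.7, 218.5 and 77.9 CPM in SAH mice 1 to 4, 61.6, 84.1 and 124.0 in Sham, and 100.1, 111.0 and 62.4 in Naive. The control mice alone spanned 61.6 to 124.0 CPM, and the other 3 SAH mice fell inside that range. Tsc22d3 (chrX:137074068-137135061, minus strand) codes for Gilz, a leucine zipper protein that carries part of the anti-inflammatory action of glucocorticoids. It had 51.8, 63.6, 123.1 and 58.1 CPM in SAH mice 1 to 4, 53.7, 56.0 and 76.5 in Sham, and 68.9, 79.8 and 51.5 in Naive. Both genes had the same 3 control mice at the top, namely Sham mouse 7 and Naive mice 8 and 9. The log2 fold changes of 0.38 (SE 0.28) for Sgk1 and 0.20 (SE 0.21) for Tsc22d3 were within the spread between mice (edgeR adjusted p = 0.517 and 0.658). They turned to -0.084 and -0.15 without SAH mouse 3.

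Plin4 and Pdk4 belong to fat storage and fuel choice. Plin4 (chr17:56240014-56249225, minus strand) codes for perilipin 4, a coat protein of lipid droplets. It was at 0.870, 0.993, 24.5 and 3.56 CPM in SAH mice 1 to 4, at 0.784, 0.846 and 1.01 in Sham, and at 0.489, 0.566 and 0.637 in Naive. The highest Sham mouse lay above SAH mice 1 and 2, while SAH mice 3 and 4 were above all controls. Plin4 rose in SAH against control by 3.33 on the log2 scale (SE 0.81, edgeR adjusted p = 0.0469). With SAH mouse 3 left out, the increase was 1.33 on the log2 scale (SE 0.40), which no longer passed the threshold (edgeR adjusted p = 0.114). The call was also lost without Naive mouse 8, 9 or 10, at log2 fold changes of 3.23 to 3.29 (edgeR adjusted p = 0.103 to 0.114). Pdk4 (chr6:5433351-5446278, minus strand) codes for a mitochondrial kinase that holds back the entry of pyruvate into the citric acid cycle. It was at 10.7, 11.1, 19.9 and 12.2 CPM in SAH mice 1 to 4, 11.3, 10.4 and 12.8 in Sham, and 11.9, 11.9 and 13.3 in Naive. Apart from SAH mouse 3 the values of all groups were intermixed, and the log2 fold change was 0.17 (SE 0.15, edgeR adjusted p = 0.595) with that mouse and -0.068 without it.

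Sult1a1 (chr7:133816384-133819871, minus strand) codes for a sulfotransferase of phenols and catecholamines. Its levels were 5.37, 6.36, 19.9 and 8.43 CPM in SAH mice 1 to 4, 4.99, 4.74 and 5.55 in Sham, and 4.36, 4.01 and 4.67 in Naive. SAH mice 2, 3 and 4 were above all controls, and SAH mouse 1 was below the highest Sham mouse. Sult1a1 rose by 1.07 on the log2 scale (SE 0.29, edgeR adjusted p = 0.0718). It was the only member that passed the threshold also without SAH mouse 3, with a log2 fold change of 0.51 (SE 0.14, edgeR adjusted p = 0.0738). It did not pass without SAH mouse 4, Sham mouse 5 or 6, or Naive mouse 8, 9 or 10, at log2 fold changes of 1.03 to 1.14 (edgeR adjusted p = 0.12 to 0.157).

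Cdkn1a and Zbtb16 act on the cell cycle and on transcription. Cdkn1a (chr17:29227931-29237667, plus strand) codes for p21, an inhibitor of cyclin-dependent kinases that p53 also induces. It was at 8.08, 8.61, 67.6 and 8.95 CPM in SAH mice 1 to 4, at 8.54, 5.66 and 8.05 in Sham, and at 8.46, 11.2 and 6.54 in Naive. The value in SAH mouse 3 was 6.03 times that of the next mouse, whereas the other 3 SAH mice lay inside the control range. A log2 fold change of 1.51 therefore came with an SE of 0.53 (edgeR adjusted p = 0.164), and it was 0.096 (SE 0.16, edgeR adjusted p = 0.862) without SAH mouse 3. Leaving out SAH mouse 1 or 2 instead gave 1.79 or 1.80, past the threshold (edgeR adjusted p = 0.0813 and 0.0786). Zbtb16 (chr9:48462402-48644050, minus strand) codes for Plzf, a zinc finger repressor. It was at 57.1, 53.4, 106.2 and 73.2 CPM in SAH mice 1 to 4, at 48.9, 62.9 and 56.5 in Sham, and at 66.7, 62.7 and 53.7 in Naive. SAH mouse 4 was again above all controls, by a small margin, and the log2 fold change was 0.30 (SE 0.16, edgeR adjusted p = 0.351), or 0.066 without SAH mouse 3.

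The receptors behaved differently from the induced genes in SAH mouse 3. Nr3c1 (chr18:39570199-39646899, minus strand) was lowest there, at 74.5 CPM, while SAH mice 1, 2 and 4 had 123.1, 110.3 and 110.6 CPM. Sham mice had 118.0, 111.4 and 117.1 CPM and Naive mice 108.2, 112.0 and 114.2 CPM, so that the other 9 mice kept within 108.2 to 123.1 CPM. The SAH average of 104.6 ± 20.9 CPM (SD, n = 4) and the control average of 113.5 ± 3.69 CPM (SD, n = 6) differed by less than the spread between SAH mice (log2 fold change -0.12, SE 0.099, edgeR adjusted p = 0.581), and the log2 fold change was 0.016 without SAH mouse 3. Nr3c2 (chr8:79426407-79767538, plus strand) had 185.0, 185.7, 193.6 and 160.1 CPM in SAH mice 1 to 4, 163.4, 193.9 and 184.5 in Sham, and 180.1, 193.5 and 169.7 in Naive. Its values were intermixed over the groups, with means of 181.1 ± 14.5 CPM over SAH mice (SD, n = 4) and 180.8 ± 12.4 CPM over controls (SD, n = 6). The log2 fold change of Nr3c2 was 0.0017, with an SE of 0.060.

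**Figure D1:**
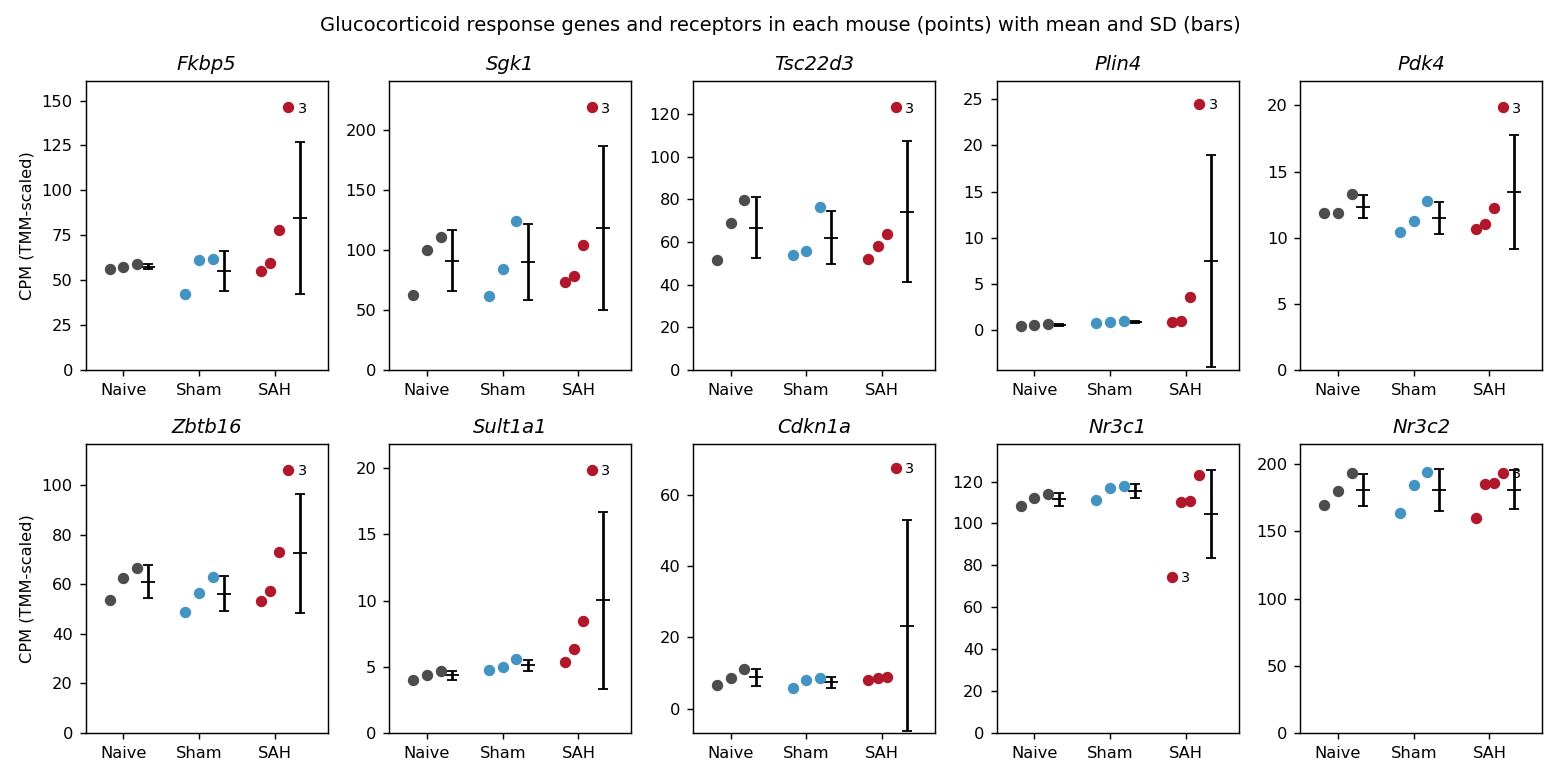
Level of each gene (vertical axes, CPM after TMM scaling) in Naive (gray), Sham (blue) and SAH (red) mice; points are mice, bars show the group mean and SD, and the digit 3 marks SAH mouse 3. That mouse is the highest point in the panels of all 8 induced genes, at 146.2 CPM for Fkbp5 and 24.5 CPM for Plin4, and the lowest for Nr3c1 at 74.5 CPM.

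Whether hemorrhage changed these genes was asked first by comparing SAH mice with a control group that joined Sham and Naive. With edgeR's quasi-likelihood test and an adjusted p threshold of 0.10, 2 of the 10 genes were higher in SAH (Plin4 and Sult1a1), beside 3.13% of all 14993 genes tested, and 0 were lower, beside 1.54%. Nothing is read from these counts, since the genes were chosen with results of this comparison known. Before adjustment, 4 members were higher in edgeR at p under 0.05, beside 9.13% of all genes, and 0 were lower, beside 7.87%. DESeq2 gave 2 higher and 0 lower, and gave no p for Cdkn1a. None of the 10 genes had all 4 SAH mice above all 6 control mice, a pattern that 2.83% of all genes showed, and 0 had all 4 below (2.37% of all genes). The median log2 fold change was 0.34 over the 10 genes and -0.0024 over all genes tested. Without SAH mouse 3 the median over the 10 was 0.041, 1 gene (Sult1a1) was higher, beside 2.75% of all genes, and 0 were lower, beside 1.02%.

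Hemorrhage and surgery were then set apart in a fit of the 3 groups. No member passed the threshold in SAH against Sham, where 0.529% of 15134 genes were higher and 0.192% lower. Before adjustment, 4 members in that comparison (Fkbp5, Plin4, Sult1a1 and Cdkn1a) had p under 0.05, all higher in SAH, beside 5.87% of genes higher and 3.83% lower at that threshold, and DESeq2 called 0. In SAH against Naive 0 members passed, beside 2.03% of genes higher and 0.965% lower. There, 2 members (Plin4 and Sult1a1) had an unadjusted p under 0.05 and were higher, beside 7.78% of genes higher and 7.06% lower, and DESeq2 called Plin4. Leaving out SAH mouse 1 or 2 brought both past the edgeR threshold against Naive. The log2 fold change of Plin4 was 3.05 (SE 1.03) against Sham and 3.69 (SE 1.13) against Naive, and that of Sult1a1 was 0.96 (SE 0.36) against Sham and 1.18 (SE 0.37) against Naive. Leaving out SAH mouse 3, Plin4 was at 1.05 (SE 0.45) against Sham and 1.69 (SE 0.49) against Naive on the log2 scale, and Sult1a1 at 0.41 (SE 0.16) and 0.63 (SE 0.16). In Sham against Naive 0 members passed by edgeR or DESeq2, where 0.00661% of all genes were higher in Sham. Of the members 0 had an unadjusted p under 0.05 there, beside 1.14% of genes higher and 0.879% lower. Sham mice had Plin4 at 0.879 ± 0.114 CPM and Naive mice at 0.564 ± 0.0739 CPM (SD, n = 3 each), and the log2 fold change was 0.64 (SE 1.42). In those fits without SAH mouse 3, 0 members passed against Sham, beside 1.1% of genes higher and 0.324% lower, and 1 (Sult1a1) was higher against Naive, beside 2.21% of genes higher and 1.05% lower. The 3 comparisons share mice and are not independent of each other.

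**Figure D2:**
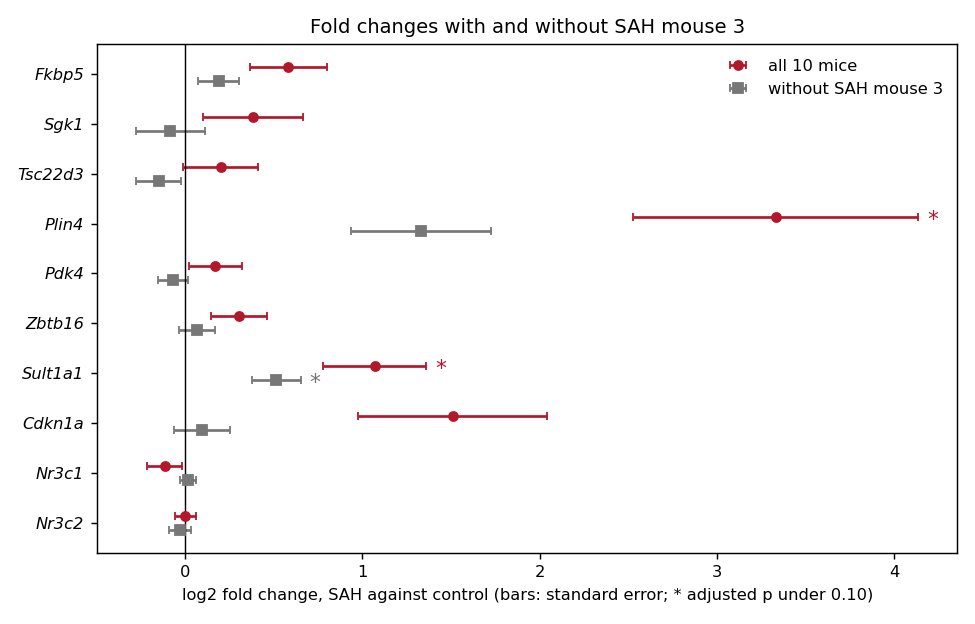
Log2 fold change of each gene in SAH against control (horizontal axis) with all 10 mice (red circles) and without SAH mouse 3 (gray squares); bars are standard errors and asterisks mark an edgeR adjusted p under 0.10. Plin4 moves from 3.33 to 1.33 and Cdkn1a from 1.51 to 0.096 when that mouse is left out, and Sult1a1 has an asterisk in both fits.

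The size of the shift in SAH mouse 3 differed widely from gene to gene. Against the median of the other 9 mice, Plin4 was 29.0 times higher, Cdkn1a 7.98 times, Sult1a1 3.98 times, Sgk1 2.60 times, Fkbp5 2.48 times, Tsc22d3 2.12 times, Zbtb16 1.86 times and Pdk4 1.68 times. Ranked by this difference among all 14993 genes tested, Plin4 was first, Cdkn1a was at place 13 and Sult1a1 at place 43. The other 5 induced genes were at places 138 to 577. In 6 of the 8, SAH mouse 3 was at least 1.5 times the next mouse, as in 1.54% of all genes. Nr3c1 stood at 0.665 times the median of the other mice, and Nr3c2 at 1.05 times.

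SAH mouse 4 held an intermediate place for some of these genes. Expressed as log2 deviations from the control mean, the 8 induced genes had a median of 1.35 in SAH mouse 3 (0.74 to 4.97), 0.26 in SAH mouse 4, 0.063 in SAH mouse 2 and 0.0021 in SAH mouse 1. In Sham mice these medians ran from -0.16 to 0.19 and in Naive mice from -0.12 to 0.091. With SAH mouse 3 set aside, SAH mouse 4 was the highest mouse for 4 of the 8 (Fkbp5, Plin4, Zbtb16 and Sult1a1), while control mice were the highest for Sgk1, Tsc22d3, Pdk4 and Cdkn1a.

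**Figure D3:**
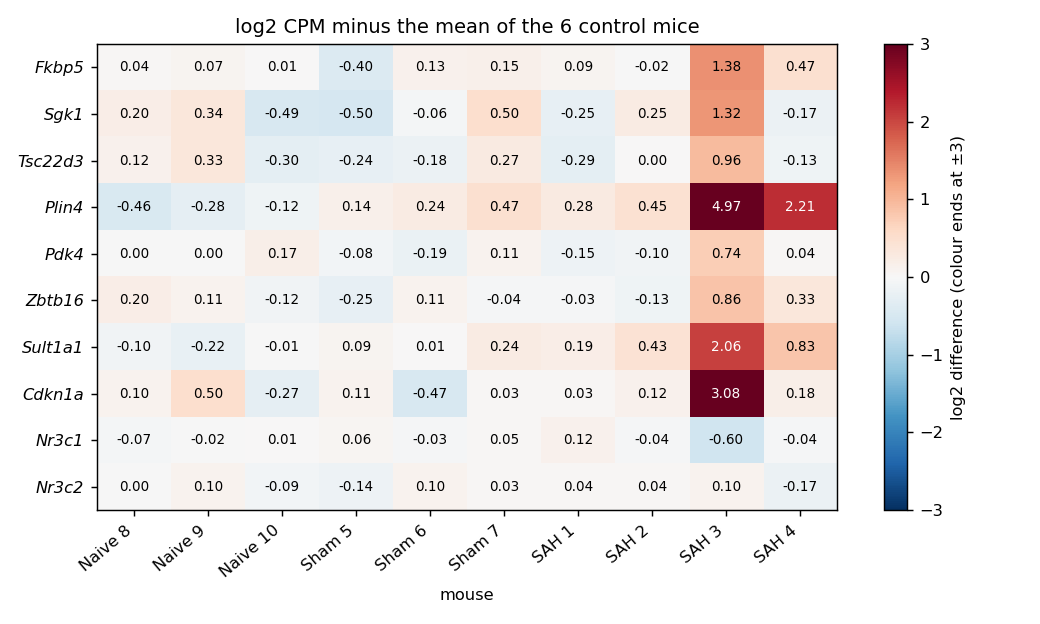
Log2 deviation of each gene (rows) from the mean of the 6 control mice in every mouse (columns), with the value written in each cell and red for higher, blue for lower. The column of SAH mouse 3 is red for all 8 induced genes, up to 4.97 for Plin4, while the columns of SAH mice 1 and 2 stay near the controls with medians of 0.0021 and 0.063.

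Other genes of the pathway came from lists written with earlier results of these data known. Of 30 further genes that glucocorticoids induce, all were tested, 2 were higher and 1 was lower in SAH than control. The higher genes were Lcn2, a secreted lipocalin of the acute phase (log2 fold change 3.74, SE 0.74, edgeR adjusted p = 0.015, with 2.68 left without SAH mouse 3), and Anxa1, the anti-inflammatory annexin A1 (0.60, SE 0.18, edgeR adjusted p = 0.0978). Lcn2 was at 0 CPM in Naive mice 9 and 10 and at most 0.362 CPM in any control, so its control level is imprecise. The fold of Anxa1 was as large without SAH mouse 3 (0.60, edgeR adjusted p = 0.155). Dusp1, a phosphatase that switches off MAP kinases, was lower (-0.71, SE 0.12, edgeR adjusted p = 0.00682), also without SAH mouse 3. Its levels were 11.6 to 19.1 CPM in the 4 SAH mice and 22.3 to 29.1 CPM in the 6 controls. The groups did not overlap, nor did they for Lcn2 and Anxa1, where all 4 SAH mice were above all 6 controls. For Anxa1 the margin was small, with 1.44 CPM in the lowest SAH mouse and 1.40 CPM in the highest control. Of all genes tested, 2.83% had all 4 SAH mice above all 6 controls and 2.37% had all 4 below. Hif3a, a hypoxia-inducible factor subunit, reached 30.1 CPM in SAH mouse 3, with 2.39 to 6.20 CPM elsewhere (log2 fold change 1.47, SE 0.54, edgeR adjusted p = 0.187). Without that mouse it was at 0.14 on the log2 scale (edgeR adjusted p = 0.877), and the list had 1 gene higher (Lcn2) and 2 lower (Dusp1 and Tiparp). The count of higher genes also depended on other mice, being 6 without SAH mouse 1, 3 without SAH mouse 2, and 1 by DESeq2 or without any other single mouse.

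In this list, too, SAH mouse 3 was at the top. It was the highest of the 10 mice for 24 of the 30 genes (80.0%, beside 24.8% of all genes), with a median log2 difference from the other mice of 0.82. Examples are Arrdc2 (38.7 CPM against 7.22 to 11.1 in the other 9 mice), the kinase Map3k6 (12.4 against 1.83 to 3.20), the glucose transporter Slc2a1 (169.4 against 48.5 to 89.7), the metallothionein Mt2 (241.6 against 89.4 to 118.4) and the transcription factor Klf15 (47.1 against 18.6 to 25.3). The clock gene Per1 was closer to the rest, at 128.4 CPM against 62.7 to 115.8. The 6 genes that were not highest in SAH mouse 3 were Dusp1, Cebpb, Bcl6, Tiparp, Anxa1 and Ccnd3. The median log2 fold change of the list was 0.28 with all mice and 0.042 without SAH mouse 3.

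Genes that make, convert or transport steroids, with the stress peptides, showed no common shift. Of 12 tested, Abcb1a, which codes for the drug and steroid efflux pump of the vessel wall, was higher (0.71 on the log2 scale, edgeR adjusted p = 0.0294, or 0.61 and 0.0568 without SAH mouse 3) and Srd5a1, a steroid reductase, was lower (-0.37, edgeR adjusted p = 0.0862, or -0.28 and 0.157 without SAH mouse 3). Abcb1a lost its call without SAH mouse 4, and the count of lower genes was 0 without SAH mouse 3 or 4, Sham mouse 5 or 7, or any single Naive mouse. SAH mouse 3 was the highest mouse for 2 of the 12 (16.7%, beside 24.8% of all genes) and the lowest for 5, beside 26.3% of all genes. Among those 5 was Crh, the peptide that drives the pituitary, at 0.657 CPM against 1.21 to 2.57 CPM elsewhere. The receptor Crhr2 was at 3.28 CPM in that mouse against 1.13 to 1.98 CPM elsewhere (log2 fold change 0.51, edgeR adjusted p = 0.256, or 0.23 and 0.658 without it). Of 16 chaperones and cofactors of the receptors 0 passed the threshold, with a median of -0.027. The largest log2 fold changes among them were 0.16, for the heat shock genes Hspa1a and Hspa1b, a near-identical pair whose shared reads were not counted. Of 19 tested paralogs of the response genes and receptors, the cell cycle inhibitor Cdkn1c was higher (0.52, edgeR adjusted p = 0.0545, or 0.51 and 0.0864 without SAH mouse 3) and the kinase Sgk2 was lower (-0.74, edgeR adjusted p = 0.0564, or -0.68 and 0.114 without SAH mouse 3). Both counts were 0 without SAH mouse 4 or any single Naive mouse. Their median was -0.030. Without SAH mouse 3 the medians were 0.15 for the steroid handling genes, -0.018 for the chaperones and -0.018 for the paralogs.

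Because Cdkn1a, Pdk4, Plin4 and several listed genes respond to other signals as well, targets of those signals were set beside them. Of 15 p53 target genes tested, 0 were higher and 3 were lower in SAH (Phlda3 at -0.37, Zmat3 at -0.27 and Btg2 at -0.50 on the log2 scale, with edgeR adjusted p = 0.0399, 0.0718 and 0.0902). Btg2 lost its call without SAH mouse 3 at nearly the same fold (-0.48, edgeR adjusted p = 0.15). Leaving out single mice gave 0 lower without SAH mouse 4 and 1 without Sham mouse 6 or Naive mouse 8 or 9, while 1 gene was higher without SAH mouse 1 and 2 without SAH mouse 2. DESeq2 gave 1 higher and 4 lower. SAH mouse 3 was the highest mouse for 4 of the 15 (26.7%, beside 24.8% of all genes). Among these were the apoptosis gene Pmaip1, at 5.66 CPM against 0.735 to 1.76 CPM elsewhere, and Trp53inp1, at 51.6 CPM against 17.9 to 21.3 CPM. Of 13 genes of fatty acid oxidation and PPAR response tested, 0 were higher and 1 was lower (Fabp7, the brain fatty acid binding protein, -0.59, edgeR adjusted p = 0.0687, or -0.50 and 0.133 without SAH mouse 3). That count of lower genes was 0 without SAH mouse 3 or 4, Sham mouse 5 or any single Naive mouse, and 1 gene was higher by DESeq2 or without SAH mouse 1 or 2. Ucp2, a mitochondrial carrier, was at 45.0 CPM in SAH mouse 3 against 12.7 to 21.1 CPM elsewhere. That mouse was the highest for 7 of the 13 (53.8%, beside 24.8% of all genes). Of 14 clock output genes, 1 passed the threshold, Bhlhe41, a repressor of the clock (0.31, edgeR adjusted p = 0.0617, or 0.23 and 0.118 without SAH mouse 3). The list had 4 genes higher and 1 lower without SAH mouse 2, 2 higher by DESeq2, and 0 higher without SAH mouse 3 or 4, Sham mouse 5 or Naive mouse 8 or 9. SAH mouse 3 was the highest for 6 of these 14 (42.9%, beside 24.8% of all genes), with the clock repressor Ciart at 25.5 CPM against 6.73 to 9.49 CPM elsewhere. The median log2 difference of SAH mouse 3 from the other mice was -0.0013 for the p53 list, 0.13 for the PPAR list and 0.15 for the clock list, beside 0.82 for the 30 induced genes and 1.20 for the 10 response genes and receptors. A large difference was not particular to the steroid lists, since it was 2.11 for 10 choroid plexus markers, of which SAH mouse 3 was the highest for 8 (80.0%). The part of these other signals and cells in the levels of SAH mouse 3 was not tested.

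**Figure D4:**
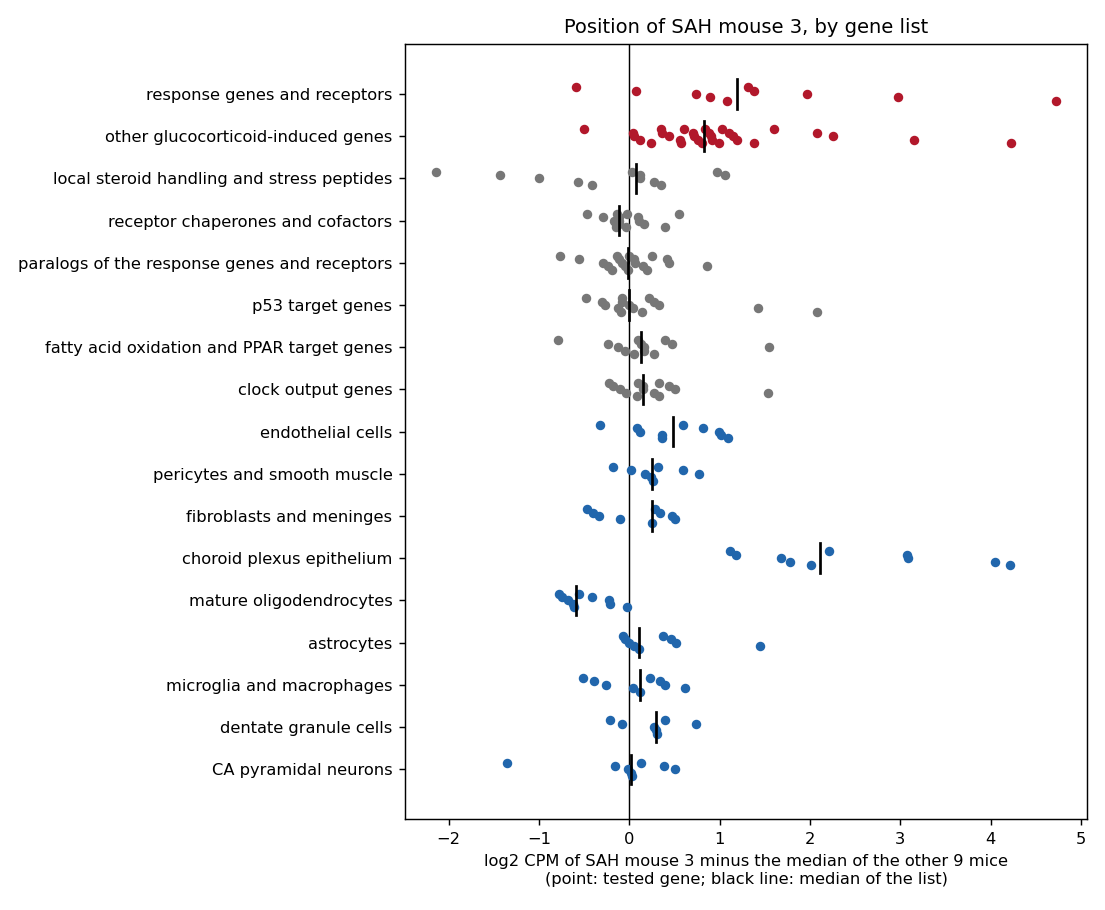
Difference between SAH mouse 3 and the median of the other 9 mice in log2 CPM (horizontal axis) for every tested gene (points), by gene list (rows), with the median of each list as a black line; the lists of response genes are in red, other pathway lists in gray and cell type markers in blue (lists with at least 7 tested genes). The medians are 1.20 and 0.82 for the red lists, -0.12 to 0.15 for the gray lists and -0.59 (oligodendrocytes) to 2.11 (choroid plexus) for the blue lists.

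The libraries also differed in markers of other cell types, which are given here because SAH mouse 3 stood apart in some. In bulk tissue, fewer cells of a type and less RNA per cell cannot be told apart. The summed level of 10 choroid plexus genes was 1247 CPM in SAH mouse 3, the highest of all mice, 107.0 to 881.3 CPM in the other SAH mice, 60.3 to 846.0 CPM in Sham and 47.8 to 70.9 CPM in Naive. None of the 10 was at 0 in any mouse. Sham mouse 7, with 846.0 CPM of these markers, had 7 of the 8 induced genes above the control mean, with a median log2 deviation of 0.19, the highest of the controls. In that mouse Sgk1 was at 124.0 CPM, the highest level outside SAH mouse 3, and Tsc22d3 at 76.5 CPM, while Fkbp5, Plin4, Sult1a1 and Cdkn1a were at 62.0, 1.01, 5.55 and 8.05 CPM. SAH mouse 4, with 881.3 CPM of the markers, had Sgk1 at 77.9 CPM and Tsc22d3 at 58.1 CPM, and Naive mouse 9, with the fewest at 47.8 CPM, had them at 111.0 and 79.8 CPM. With SAH mouse 3 set aside, SAH mouse 4 was the highest for 4 of the 8 induced genes. These were Fkbp5 (77.8 CPM), Zbtb16 (73.2), Sult1a1 (8.43) and Plin4 (3.56), while control mice were the highest for Sgk1, Tsc22d3, Pdk4 and Cdkn1a. Summed endothelial markers were 149 to 285 CPM in the SAH mice, of which mouse 3 had 225 CPM, against 134 to 181 CPM in control. Here 4 of 10 genes were higher in SAH. The 9 genes of fibroblasts and meninges summed to 192.5 CPM in SAH mouse 3, the lowest of the SAH mice (up to 382.9 CPM), and to 139 to 182 CPM in control, and 7 of the 9 were higher in SAH. Mature oligodendrocyte markers were lower for 9 of 10 genes (8 without SAH mouse 3). Of the astrocyte markers 1 of 9 (Gfap) was higher, of the microglial markers 4 of 9 (3 without SAH mouse 3), of pericyte markers 4 of 8, and of dentate granule cell markers 1 of 7 (0 without SAH mouse 3). The 9 neutrophil genes were too low to test, with sums of at most 1.49 CPM, and 4 globin names were listed at 0 in all mice. Read pairs with more than 1 alignment were not counted, so these 0 values are not read as absence of blood RNA. The red blood cell gene Alas2 was present in every mouse, at 22 to 100 counts. The part of these cell type differences in the levels of the response genes was not tested.

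Genes whose pattern over the 10 mice was most like that of a response gene were found by the root-mean-square (RMS) difference of log2 CPM, centered and scaled to SD 1. For Plin4 the most alike of all tested genes was another member, Sult1a1 (RMS 0.153), followed by Ssr3 (0.171), Pttg1ip (0.178), Abca1 (0.190) and Sepp1 (0.203). For Fkbp5 they were Spsb1 (0.175), Dhx33 (0.211), Cotl1 (0.213), Cndp2 (0.221) and Epha4 (0.226). For Tsc22d3 they were Rasl11b (0.210), Sgk1 (0.253), Ankrd13a (0.255), Traf6 (0.289) and Bcl2l13 (0.294). For Nr3c1, which was lowest in SAH mouse 3, they were Cdh11 (0.225), Dscr3 (0.237), 1110032F04Rik (0.243), Nr2e1 (0.245) and Rasa3 (0.258). In each of these genes SAH mouse 3 lay outside the range of the other 9 mice. Spsb1, for instance, was at 72.5 CPM in SAH mouse 3 against 18.9 to 32.6 CPM elsewhere, and Cdh11 at 77.6 CPM there and 114.6 to 123.6 CPM elsewhere.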

How the data were processed

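Total RNA (ribosomal RNA depleted, stranded, paired-end) from the hippocampus of both sides was sequenced in 10 mice. The authors aligned reads to mm9 with STAR and counted read pairs per gene with featureCounts 1.6.2. The authors deposited raw counts. Pairs with more than 1 alignment, or over more than 1 gene, were not counted by them.

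From the counts, edgeR 4.0.16 in R 4.3.3 was run over all genes that passed filterByExpr (minimum count 10, minimum total 15), with TMM scaling and the quasi-likelihood test, and p was adjusted over all genes by the method of Benjamini and Hochberg. An adjusted p under 0.10, the threshold of the study, was used. DESeq2 1.42.0 was an alternative. SAH was compared with pooled Sham and Naive mice, and the groups were compared pairwise in a fit of all 3. Group means are of CPM. Log2 CPM used a prior count of 2. The spread is between animals. In a test on simulated data for SAH against control (14902 genes), 51 of 67 genes changed 1.5-fold, 61 of 67 changed 2-fold and 66 of 66 changed 4-fold were recovered, and 8.2% of 194 calls were false. The share of false calls was 14.1% for SAH against Sham, 7.9% for SAH against Naive and 10.7% for Sham against Naive.

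The members, lists and tests were chosen with earlier results of these data known. Named are all members, of each pathway list the genes past the threshold and the 2 with the largest log2 fold change, and the 5 genes most like Fkbp5, Tsc22d3, Plin4 and Nr3c1. Other examples were chosen after their values were seen. Sequences and coordinates are from mm9 (NCBIM37) and from the count tables.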

Additional observations from a re-analysis of the deposited data

Results flagged for a closer look

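A value far from the rest of its group was looked for with Dixon's test in the 4 SAH and the 6 control mice. The genes examined were the 10 members and, of each pathway list, those past the threshold and the 2 with the largest log2 fold change. Genes given above as other examples, such as Arrdc2, Map3k6 and Trp53inp1, were not examined. Of 58 groups examined 10 had such a value. For genes chosen without regard to their values chance gives about 1 in 20, but that rate does not apply here, since the members were chosen with results known and the listed genes were named in part for their fold change, to which SAH mouse 3 contributes. In SAH mouse 3 the levels were 123.1 CPM for Tsc22d3 (51.8 to 63.6 in the other SAH mice), 24.5 CPM for Plin4 (0.870 to 3.56), 19.9 CPM for Pdk4 (10.7 to 12.2) and 67.6 CPM for Cdkn1a (8.08 to 8.95). Of the listed genes, Hif3a was at 30.1 CPM (3.05 to 6.20), Lcn2 at 4.60 CPM (at most 1.01), Pmaip1 at 5.66 CPM (1.18 to 1.76) and Ciart at 25.5 CPM (6.84 to 9.09) in the same mouse. The flags of 1 mouse are not independent of each other. Among the controls, Fkbp5 was low in Sham mouse 5, at 42.4 CPM (56.2 to 62.0 in the other 5), and Hspa1b was high in Naive mouse 9, at 7.35 CPM (4.75 to 5.72).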

How the results depend on the processing

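The count of members higher in SAH than control was 2. It was 1 (Plin4) at an adjusted p under 0.05, and 0 with Naive mice alone as control, 0 with Sham mice alone and 0 with a robust fit. Leaving out 1 mouse gave 0 to 4: 0 without any 1 of the Naive mice, 1 when SAH mouse 3, SAH mouse 4, Sham mouse 5 or Sham mouse 6 was missing, and 4 without SAH mouse 1 or 2, when Fkbp5 and Cdkn1a joined. The count in SAH against Naive was 0, with 1 (Plin4) by DESeq2 and 1 without a filter, and 0 to 2 when 1 mouse was left out (2 without SAH mouse 1 or 2, 1 without SAH mouse 3). The counts of members lower in SAH than control, and those of SAH against Sham and of Sham against Naive, were 0 under every alternative run. Without SAH mouse 3 (for single genes of the lists an alternative added after seeing the data), the log2 fold changes of Sgk1 (-0.084), Tsc22d3 (-0.15), Pdk4 (-0.068), Nr3c1 (0.016), Nr3c2 (-0.030) and Ciart (-0.039) changed sign. Over all 10 mice left out in turn, they ran from -0.084 to 0.55 for Sgk1, -0.15 to 0.34 for Tsc22d3, -0.068 to 0.26 for Pdk4, -0.20 to 0.016 for Nr3c1 and -0.030 to 0.057 for Nr3c2. That of Nr3c2, near 0 throughout, was also negative without a filter (-0.000703) and without Naive mouse 10 (-0.016), SAH mouse 1 (-0.0091), SAH mouse 2 (-0.011) or Sham mouse 5 (-0.026). Of 190 alternatives for the fold changes of the members, 160 kept the direction and, where a p was given, the side of the threshold (DESeq2 gave none for Cdkn1a), although the size could move, as for Cdkn1a from 1.51 to 0.096 without SAH mouse 3, and 10 reversed. Apart from the smaller number of mice, the causes of these changes were not tested. With other scalings the median of all genes moved by less than 0.01. No paired analysis was possible because the labels number the mice 1 to 10 and no number is shared between groups. Plin4 rested on 11 to 25 counts in each control mouse, so that its control level is imprecise.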
